A study of Mus musculus with 18 samples.

Results

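A circular RNA from the Rmdn2 locus and another from the Alg12 locus were among the 5 of highest mean level in this set of mouse livers. The members described here are these 2 and every other listed circular RNA whose start and end both lie inside either gene. Of 434 circular RNAs, 3 met this rule, 2 in Rmdn2 and 1 in Alg12. The shorter Rmdn2 circle and the Alg12 circle were chosen by their mean CPM over all 18 livers, so their abundance is a description and was not tested. The longer Rmdn2 circle came in by position alone, and the rule used no comparison between groups. Livers came from male C57BL/6 mice that were 6 weeks old at the start, and 6 mice per group were sequenced in week 22. Each group began with 15 mice, and how the 6 were picked is not stated. Controls were given distilled water by gavage each day and olive oil by injection into the peritoneum. The CCl4 group had the same water and injections of carbon tetrachloride (CCl4), a liver toxin used to induce liver cancer. The CCl4+PZH group had CCl4 and daily PZH (Pien Tze Huang), a medicine of the Chinese tradition, which the labels of these 6 samples write as PTH.

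An exonic circular RNA forms when splicing joins the end of an exon to the start of the same or an earlier exon. The closed loop has no free ends for exonucleases to attack, which lets circles persist in cells that divide rarely, such as hepatocytes. A read that spans the back-splice junction identifies a circle, and because each circle has a single junction, counts of such reads do not scale with the circle's length. Rmdn2 encodes regulator of microtubule dynamics 2, a member of a small family named after a worm protein that binds microtubules and acts in chromosome segregation. Its relative Rmdn3 tethers the endoplasmic reticulum to mitochondria. Alg12 encodes a mannosyltransferase of the endoplasmic reticulum, which adds a mannose to the lipid-linked sugar chain that is later moved onto secreted proteins as an N-glycan. Hepatocytes make most glycoproteins of blood plasma. Messenger RNA of the host genes was not analysed here, and its level cannot be read from that of a circle.

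The 2 Rmdn2 circles share their start and differ in their end (coordinates in GRCm38). The shorter circle runs from 79650302 to 79659473 on chromosome 17, a genomic span of 9.17 kb. The longer circle starts at the same base and ends at 79672573, a span of 22.3 kb. Both lie inside the Rmdn2 gene, which covers 106 kb from 79578596 to 79684976 on the plus strand. Their shared start lies 35.1 kb downstream of 1 annotated transcription start of the gene and 23.6 kb downstream of another. A long non-coding RNA gene, Gm33006 (79652537 to 79667882), lies within the longer circle and overlaps the shorter one. The table gives no strand, so the circles cannot be assigned to Rmdn2 by strand. The Alg12 circle runs from 88811297 to 88812159 on chromosome 15, a span of 0.863 kb inside a gene of 14.1 kb on the minus strand. Its upstream edge lies 7.16 kb from the annotated start of Alg12. The median span over the table was 4.69 kb. The Alg12 circle was shorter than most, with 13.4% of the listed circles shorter still, against 70.0% for the shorter and 88.9% for the longer Rmdn2 circle. Exon boundaries and junction sequences were not used here.

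Levels are given in CPM, counts of back-splice reads scaled to a common library total, and as whole reads recovered from them. Recovered reads over the whole table ran from 900 to 2840 per library, and 1 read was worth 0.0449 to 0.306 CPM. Because that worth differs so much between libraries, each level was also expressed as a share of all recovered back-splice reads of its library, called the share of table reads. Among controls, summed CPM ran from 40.4 to 550, while their recovered reads ran from 900 to 2840. Controls 2, 3 and 4 carry later accessions than the other libraries. Group differences of the shorter Rmdn2 and Alg12 circles against controls are also given with controls 1, 5 and 8 alone. Of the 20 circles with most reads, 18 were listed at 0 in at least 1 library. Each value is therefore given liver by liver, and a zero is called listed at 0.

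The shorter Rmdn2 circle had the most recovered reads of all 434, 611 over 18 libraries. By mean CPM it had rank 2, at 4.39 ± 3.82 CPM (SD, n = 18), after a circle of the ubiquitin ligase gene Ube3a at 5.45 ± 6.21 CPM. Next came circles of Gramd1c, which encodes a cholesterol transport protein, at 3.89 ± 3.43 CPM, and of an unannotated region of chromosome 3 at 3.29 ± 3.38 CPM. The chromosome 3 circle was listed at 0 in 7 livers, every control among them. The Alg12 circle had rank 5 at 2.31 ± 1.51 CPM, with 314 reads, just above a circle of Ttc39c at 2.11 ± 2.54 CPM and one of Erbin, which encodes a scaffold protein of cell junctions, at 1.85 ± 1.48 CPM. No neighbours in this order were further apart than their SDs. Within single livers the order also changed: the shorter Rmdn2 circle had more reads than Ube3a in 8 livers and fewer in 10, and more than Gramd1c in 9 and fewer in 9. It had more than Alg12 in 15 of 18. Its rank within a liver ran from 1 to 17 with a median of 3, over the 17 livers where it was above 0. The Alg12 circle ranked between 2 and 57, with a median of 11. The longer Rmdn2 circle was far less abundant, at 0.341 ± 0.545 CPM and 41 reads.

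In control livers the shorter Rmdn2 circle stood at 4.89 CPM in control 1, 0.853 in control 3, 15.1 in control 4, 4.41 in control 5 and 9.86 in control 8, and it was listed at 0 in control 2. In CCl4 livers it stood at 1.72 CPM in mouse 1, 3.07 in mouse 2, 1.92 in mouse 4, 1.71 in mouse 5, 2.54 in mouse 7 and 1.38 in mouse 8. In CCl4+PZH livers the values were 3.01 CPM in mouse 1, 4.90 in mouse 2, 8.68 in mouse 3, 2.36 in mouse 6, 4.67 in mouse 7 and 7.90 in mouse 8. CCl4 livers were thus close together. Above all of them lay 4 controls and 4 CCl4+PZH livers, while controls 2 and 3 lay below all of them. The ranges of all 3 groups overlapped. Control livers averaged 5.85 ± 5.72 CPM, CCl4 livers 2.05 ± 0.626 CPM and CCl4+PZH livers 5.25 ± 2.55 CPM (SD, n = 6 per group). By group mean CPM it had rank 2 among controls, rank 6 among CCl4 livers and rank 1 among CCl4+PZH livers.

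**Figure D1:**
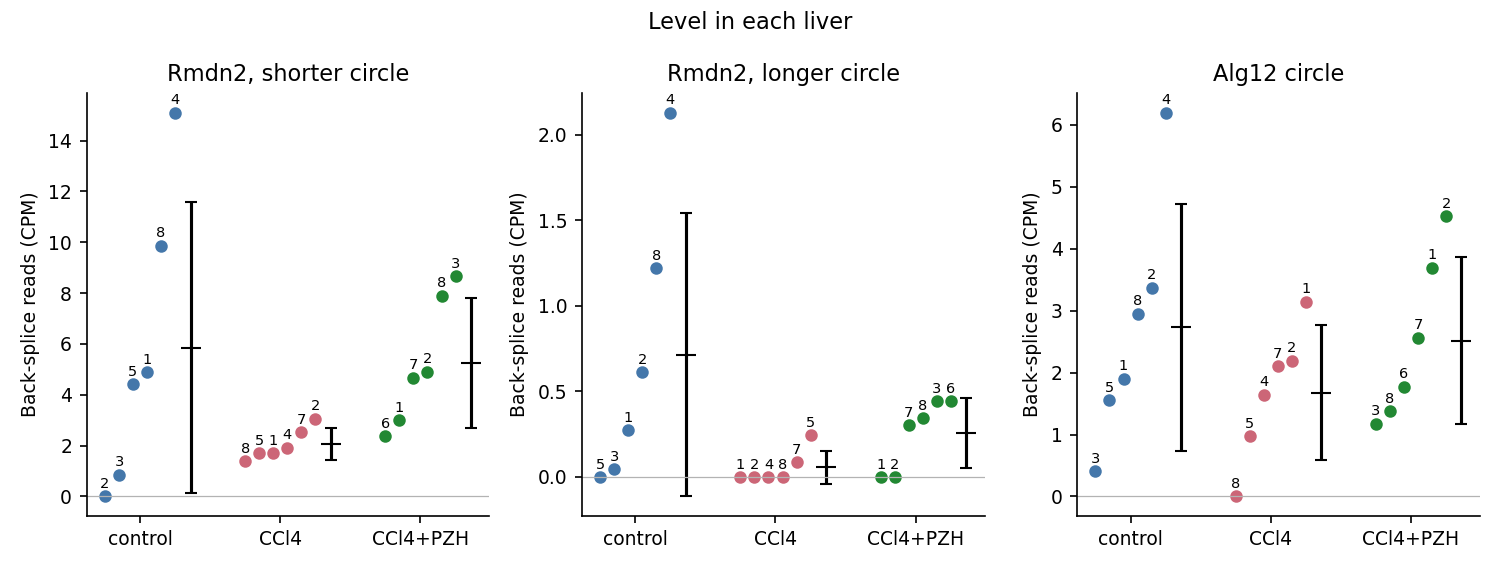
Level of the 3 circular RNAs in each liver, in CPM on a linear axis with its own scale per panel. Points are livers ordered by value and numbered by mouse within the group, and bars show mean and SD (n = 6). The shorter Rmdn2 circle was between 1.38 and 3.07 CPM in all 6 CCl4 livers, while controls ran from 0 to 15.1 CPM.

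Control 2 stood apart for this circle. Its 1263 table reads held 0 reads of it, which allows a share of up to 0.238% (3 reads; intervals and limits cover counting error only), while the lowest share in the other controls was 2.11% (control 3). At that lowest share control 2 would hold 26.7 reads. The same library had 2 reads of the longer Rmdn2 circle and 11 reads of the Alg12 circle, 3.37 CPM. Control 2 was also the only library at 0 for circles of Car8, Ptbp3, Rasa2 and Zeb1, and 3 of the 20 circles with most reads were at 0 there, against 0 to 6 in the other libraries. Whether such zeros are absence or missed calls was not tested.

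The share of table reads takes the library total out of the comparison. It also falls when other circles of the same library rise, and this was not corrected for. In controls the shorter Rmdn2 circle held 2.73% of table reads in control 1 (exact Clopper-Pearson 95% interval 1.92% to 3.75%), 2.11% in control 3, 2.75% in control 4, 3.94% in control 5 and 5.28% in control 8. In CCl4 livers it held between 0.935% (mouse 1) and 1.96% (mouse 7), with a median of 1.43%. In CCl4+PZH livers it held between 1.26% (mouse 6) and 3.45% (mouse 3), with a median of 2.36%. Every CCl4 liver lay below every control other than control 2. Every CCl4 liver also lay below every CCl4+PZH liver other than mouse 6, which CCl4 mice 2, 7 and 8 exceeded.

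**Figure D2:**
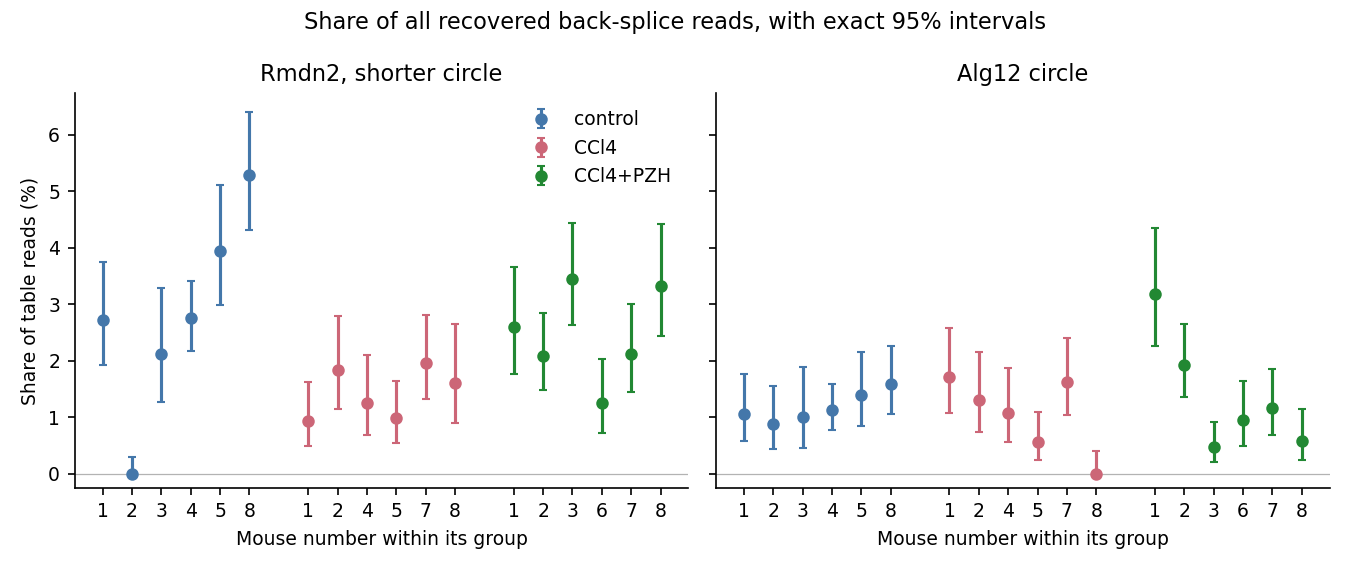
Share of all recovered back-splice reads held by the shorter Rmdn2 circle and the Alg12 circle in each liver, in percent, with exact 95% intervals for counting error. For Rmdn2 the CCl4 livers lay between 0.935% and 1.96%, below the other controls once control 2, listed at 0, is set aside.

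With all 6 controls, CCl4 livers did not pass against controls: the mean share of the shorter Rmdn2 circle was 1.43 ± 0.438% in CCl4 and 2.80 ± 1.78% in controls (SD, n = 6 each), a difference of −1.37 percentage points (two-sided exact permutation p = 0.0974, adjusted p = 0.292 over 6 tests of 2 circles in 3 comparisons). Control 2 was the only control below the CCl4 range, so leaving it out fixes that the groups separate. Without it the controls averaged 3.36 ± 1.26% (SD, n = 5), the groups did not overlap, and the difference was −1.93 percentage points (exact permutation p = 0.00216, the smallest that 6 against 5 allows, adjusted p = 0.013). Without any other single library of these groups the adjusted p of the exact permutation test was 0.292 to 0.571. Of all 434 circles, 0.691% separated in this direction without control 2, and 0.23% with it. Control 2 was set aside for the zero of this circle, so the 0.691% is no like background. How many circles separate without their own overlapping library was not counted. With controls 1, 5 and 8 alone the mean was 3.98 ± 1.28% (SD, n = 3), again with no overlap, where the smallest p possible was reached (exact permutation p = 0.0119, adjusted p = 0.0649). With these 3 controls, 2.07% of all circles separated with CCl4 lower.

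The mean share of the shorter Rmdn2 circle was higher in CCl4+PZH than in CCl4 livers, 2.47 ± 0.831% against 1.43 ± 0.438% of table reads (SD, n = 6 each). The difference of 1.04 percentage points did not pass adjustment (exact permutation p = 0.0216, adjusted p = 0.13). Mouse 6 was the only CCl4+PZH liver within the CCl4 range, so leaving it out fixes that the groups separate, at a difference of 1.29 percentage points and the smallest possible p (exact permutation p = 0.00216, adjusted p = 0.013). It has no zero of this circle and no later accession that would set it apart. Without any other single library of the 2 groups the adjusted p of the exact permutation test was 0.13 to 0.286. Without that mouse 0.461% of all circles separated with CCl4+PZH higher, and 0.23% did so with all libraries. Mouse 6 was picked by the overlap of this circle, so the 0.461% is no like background either. Beside this difference, 7 of 8 circles of hepatocyte genes had positive fitted values in the same comparison (median log2 0.48). The median over all circles was 0.23. Single circles of the lymphocyte gene Ikzf1, the matrix gene Mmp15 and of Brca2 were also positive (0.57, 0.86 and 0.63). Among macrophage genes 2 of 4 circles were positive (median −0.22). The part of any of these in the difference was not tested. CCl4+PZH livers and controls did not differ beyond their spread, by −0.328 percentage points (exact permutation p = 0.703, adjusted p = 0.714), or by −0.889 without control 2 (exact p = 0.184, adjusted p = 0.368).

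The fit across all 434 circles, limma on log2(CPM + 0.137), called none of the 3 circles in any comparison at an adjusted p of 0.05. It called 0.691% of all circles for CCl4 against control, 0% for CCl4+PZH against CCl4 and 0.23% for CCl4+PZH against control, in either direction. Over the 9 tests of the 3 circles, 1 had an unadjusted p under 0.05, where the share of all circles was 8.29%, 5.53% and 5.07% in the 3 comparisons. edgeR and DESeq2 on the recovered reads also called 0 of the 9. For the shorter Rmdn2 circle the fitted log2 differences were −0.39 for CCl4 against control (SE 0.95, adjusted p = 0.898), 1.20 for CCl4+PZH against CCl4 (adjusted p = 0.851) and 0.81 for CCl4+PZH against control (adjusted p = 0.898). Over all circles the median difference was −0.28, 0.23 and 0.02. Single controls moved both values against control. Without control 2 they were −1.26 for CCl4 (limma adjusted p = 0.771) and −0.063 for CCl4+PZH (adjusted p = 0.99), and without control 4 they were 0.10 and 1.30. A p above the threshold does not show that levels were equal.

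**Figure D3:**
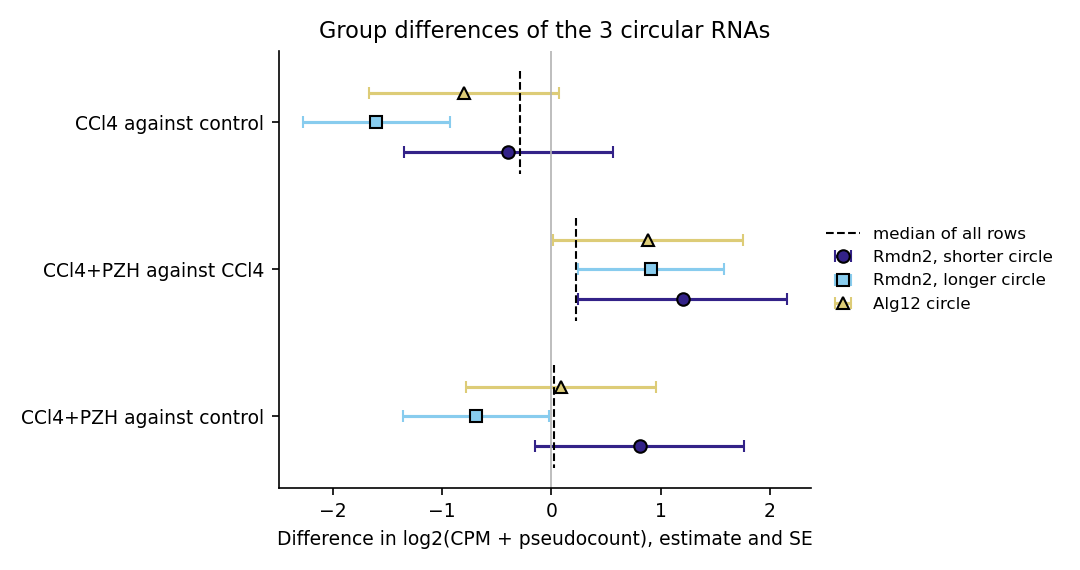
Fitted group differences of the 3 circular RNAs on the log2(CPM + pseudocount) scale, with SE from limma, and the median of all 434 as a dashed line. No adjusted p was under 0.05, and the longer Rmdn2 circle in CCl4 against control, at −1.60, had the smallest p of the 9.

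The longer Rmdn2 circle was scarce in all groups, and scarcest in reads after CCl4. In controls it stood at 0.272 CPM in control 1, 0.612 in control 2, 0.0449 in control 3, 2.13 in control 4 and 1.22 in control 8, and was listed at 0 in control 5. In CCl4 livers it was listed at 0 in mice 1, 2, 4 and 8, and stood at 0.245 CPM in mouse 5 and 0.0874 in mouse 7. In CCl4+PZH livers it was listed at 0 in mice 1 and 2 and stood at 0.441, 0.443, 0.301 and 0.344 CPM in mice 3, 6, 7 and 8. The groups overlapped, since each held at least 1 liver at 0, and these values rest on 28, 3 and 10 reads. The limma fit gave log2 −1.60 for CCl4 against control (SE 0.67, adjusted p = 0.321), 0.91 for CCl4+PZH against CCl4 (adjusted p = 0.851) and −0.69 for CCl4+PZH against control (adjusted p = 0.882). Over the other settings, single libraries left out aside, the value for CCl4 against control ran from −3.30 (edgeR with implied totals) to −0.58 (pseudocount of 1), with limma, edgeR or DESeq2 adjusted p from 0.227 to 0.691. In CCl4 against control, 14 of the 434 circles had a still lower fitted value. On shares of table reads the difference from control was −0.209 percentage points (exact permutation p = 0.0325, adjusted p = 0.0974 over 3 tests).

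The longer circle made up a small part of Rmdn2 back-splice reads, 41 of 652 over all livers, or 6.29% (exact 95% interval 4.55% to 8.43%). By pooled reads it supplied 8.97% among controls, 2.78% among CCl4 and 4.31% among CCl4+PZH livers. Its part was highest in livers with few Rmdn2 reads: 100% in control 2, on 2 reads (exact interval 15.8% to 100%), 15.8% in CCl4+PZH mouse 6, on 19, and 12.5% in CCl4 mouse 5, on 16. In other livers with few such reads it was 0, as in CCl4 mice 1, 4 and 8. In the controls with most Rmdn2 reads it was 12.4% (control 4, 89 reads) and 11% (control 8, 109 reads), while control 5 had 0 of 54. No difference in this part between groups passed (smallest exact permutation p = 0.0996, adjusted p = 0.299 over 3 comparisons; without control 2, 0.21 and 0.595). The table holds 32 other sets of circles that share a start or an end, and in these the circles other than the most abundant supplied 8.52% to 50.0% of reads, with a median of 36.2%. The shorter Rmdn2 circle was chosen for its high level, which by itself lowers the part of its partner, so nothing is read from this difference. Circles above 0 in fewer than 9 libraries are absent from the table, so still rarer partners of any circle would not be seen.

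**Figure D4:**
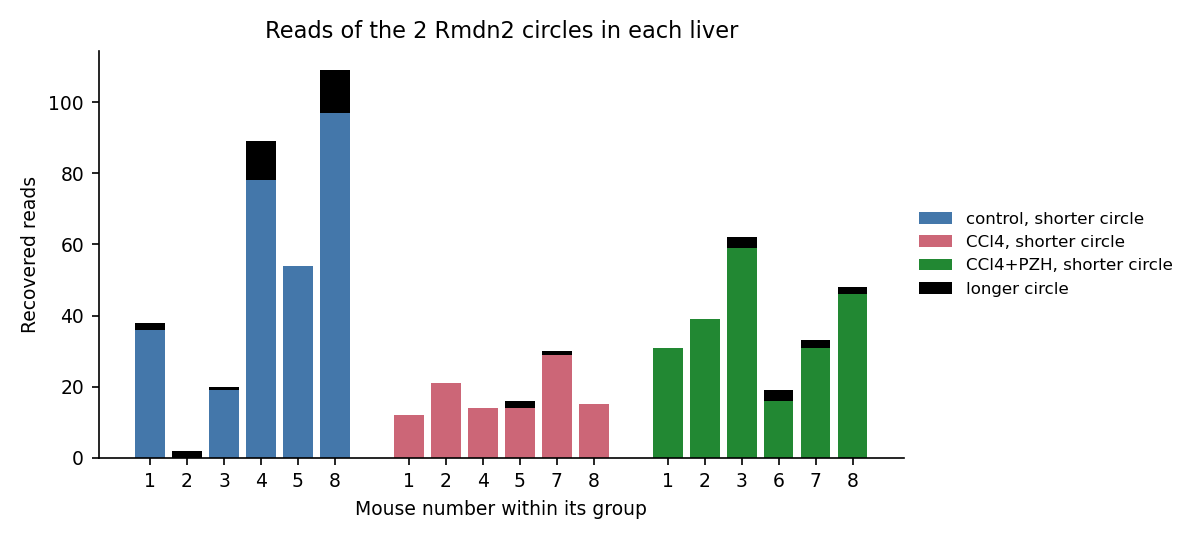
Recovered reads of the shorter (coloured) and longer (black) Rmdn2 circle in each liver, stacked. Control 8 had 97 and 12 reads and control 4 had 78 and 11, while the 6 CCl4 livers together had 105 and 3.

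The mean levels of the Alg12 circle in the 3 groups differed by less than the SD of any group, which does not show that they were equal. In controls it stood at 1.90 CPM in control 1, 3.37 in control 2, 0.404 in control 3, 6.19 in control 4, 1.55 in control 5 and 2.95 in control 8. In CCl4 livers it stood at 3.15 CPM in mouse 1, 2.19 in mouse 2, 1.65 in mouse 4, 0.978 in mouse 5 and 2.1 in mouse 7, and was listed at 0 in mouse 8. In CCl4+PZH livers it stood at 3.69, 4.53, 1.18, 1.77, 2.56 and 1.37 CPM in mice 1, 2, 3, 6, 7 and 8. The 3 ranges overlapped widely, with averages of 2.73 ± 2.0 CPM for controls, 1.68 ± 1.09 CPM for CCl4 and 2.52 ± 1.35 CPM for CCl4+PZH livers (SD, n = 6 per group). As a share of table reads, which removes the library total, controls were tightly grouped, from 0.871% (control 2) to 1.58% (control 8). CCl4 livers ran from 0 to 1.71% and CCl4+PZH livers from 0.468% (mouse 3) to 3.18% (mouse 1).

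No comparison passed for the Alg12 circle. Controls averaged a share of 1.17 ± 0.264%, CCl4 livers 1.05 ± 0.66% and CCl4+PZH livers 1.38 ± 1.03% (SD, n = 6 per group; smallest exact permutation p of the 3 pairs 0.545, adjusted p = 0.714). Against controls 1, 5 and 8 alone the share differences were −0.296 percentage points for CCl4 and 0.0347 for CCl4+PZH (exact permutation test, adjusted p = 0.655 and 0.952). limma gave log2 −0.80 for CCl4 against control (SE 0.87, adjusted p = 0.855), 0.88 for CCl4+PZH against CCl4 (adjusted p = 0.896) and 0.09 for CCl4+PZH against control (adjusted p = 0.988). The first value shrank to −0.15 (adjusted p = 0.966) and the second to 0.24 without CCl4 mouse 8. That library had 930 table reads, the fewest of the CCl4 group, so its 0 allows a share of up to 0.323%, below the lowest other CCl4 liver at 0.559% (mouse 5), at which 5.2 reads would be present. CCl4 mouse 8 was the only library at 0 for the Alg12 circle and for circles of Glt1d1 and Lncpint. With controls 1, 5 and 8 alone the limma values against control were −0.77 for CCl4 and 0.12 for CCl4+PZH (limma adjusted p = 0.924 and 0.998).

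Set against each other, the circles of Rmdn2 and Alg12 stood in similar proportions in controls once control 2, with 0 reads of the shorter Rmdn2 circle, was set aside. The shorter Rmdn2 circle supplied 67.9% to 77.0% of the reads of both in controls 1, 3, 4, 5 and 8. It supplied 35.3% to 63.6% in CCl4 livers other than mouse 8, where Alg12 was at 0. In CCl4+PZH livers it spread from 44.9% (mouse 1) to 88.1% (mouse 3). The ranges of controls and CCl4 livers each set aside a library for its zero, control 2 at 0% and CCl4 mouse 8 at 100%. With both kept, these ranges overlapped. Exact intervals for counting error also overlapped, as in control 3 (47.6% to 84.1%) and CCl4 mouse 5 (40.7% to 82.8%). Those of control 8 (68.6% to 84.0%) and CCl4 mouse 1 (19.7% to 53.5%) did not. The difference between groups was not tested, nor compared with that of other pairs of circles. Pooled over livers, there were 2.49 Rmdn2 reads per Alg12 read among controls, 1.30 among CCl4 and 1.87 among CCl4+PZH livers. Alg12 had more reads than Rmdn2 in control 2, CCl4 mouse 1 and CCl4+PZH mouse 1.

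**Figure D5:**
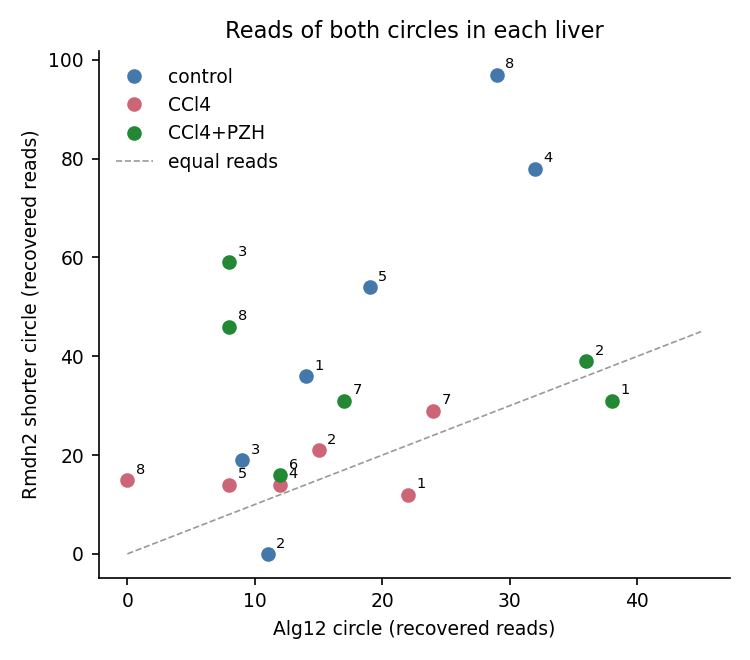
Recovered reads of the shorter Rmdn2 circle against those of the Alg12 circle in each liver, numbered by mouse within its group, with a dashed line of equal reads. In all, 15 of 18 livers lay above the line, with control 8 at 97 and 29 reads and CCl4+PZH mouse 1 below it at 31 and 38.

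Across the 18 livers the levels of the 2 circles were weakly related, with Pearson r = 0.248 and Spearman rho = 0.331 on log2(CPM + 0.137) (permutation p = 0.285 and 0.177, adjusted p = 0.653 and 0.472 over 8 relations). Leaving out controls 2 and 4, the farthest from the median in Rmdn2, r was 0.474 (permutation p = 0.06). With every library brought to the same table total, r was 0.098 (permutation p = 0.604, adjusted p = 0.69). Within groups on that scale r was 0.754 among controls, −0.115 among CCl4 and −0.305 among CCl4+PZH livers (exact permutation p = 0.0514, 0.867 and 0.568, adjusted p = 0.411, 0.867 and 0.69). In the 6 controls the rank order of both circles was identical (rho = 1, exact permutation p = 0.00278, adjusted p = 0.0222), with control 2 lowest, control 3 next and control 8 highest in both. Of the 8 relations only this one passed, and by rho alone. The order includes near ties within counting error, as controls 1 and 4 held 2.73% and 2.75% for Rmdn2 and 1.06% and 1.13% for Alg12. Both values of a liver are also scaled by the same table total. On the CPM scale rho in controls was 0.429 (exact permutation p = 0.419, adjusted p = 0.559).

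The circles whose pattern over the 18 livers was most like that of the shorter Rmdn2 circle lay in Ptbp3, an RNA-binding splicing regulator (r = 0.762), Car8, a carbonic anhydrase-related protein (r = 0.75), and Cdk17, a kinase (r = 0.63), at equal table totals on the log2 scale. All 3 were also listed at 0 in control 2, and without it r was 0.347, 0.0678 and 0.241. For Alg12 they lay in Glt1d1, a glycosyltransferase-like gene (r = 0.577), Gdi2, a regulator of Rab proteins (r = 0.541), and Taf15, an RNA-binding protein (r = 0.535). These 3 were listed at 0 in CCl4 mouse 8 as well, without which r was −0.0198, 0.411 and 0.656. For the longer Rmdn2 circle the nearest lay in Ttc39c, a circle other than the abundant one (r = 0.629), Gls2, the liver glutaminase (r = 0.618), and Slc17a5, a lysosomal sialic acid transporter (r = 0.581). The likeness between the 2 Rmdn2 circles themselves was r = 0.0754. These values describe 18 libraries that share their zeros and were not tested.

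Of 66 genes in the list of N-glycan synthesis and processing, 6 hosted 7 circles, that of Alg12 included. The other 6 circles had 23 to 87 reads each. Alg13, part of the enzyme that adds the second N-acetylglucosamine to the lipid carrier, hosted a circle of 87 reads in all, and Alg6, a glucosyltransferase acting after Alg12, a circle of 24 reads. Man1a and Man2a1, Golgi mannosidases that trim the finished chain, hosted 2 circles (34 and 53 reads) and 1 circle (70 reads), and Canx, a chaperone that binds glycoproteins, 1 of 23 reads. In CCl4 against control 4 of the 7 had positive and 3 negative fitted values, with a median of 0.01, where the median of all circles was −0.28. The members of smallest p were the Man1a circles, at −0.88 (limma adjusted p = 0.73) and −0.84 (adjusted p = 0.751). In CCl4+PZH against CCl4 the median was 0.73, with 4 positive of 7, and against control −0.09, with 3 positive.

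Of 46 genes in the list of the RMDN family and microtubule regulators, 4 hosted 6 circles. Besides Rmdn2 these were Mark3, a kinase of microtubule-associated proteins (41 and 80 reads), Vapa, a tether protein of the endoplasmic reticulum (100 reads), and Ckap5, a microtubule polymerase (25 reads). Rmdn1 and Rmdn3 hosted none that is listed. In CCl4 against control 2 of 6 values were positive, with a median of −0.56, and those of smallest p were the longer Rmdn2 circle and that of Ckap5, at 1.13 (limma adjusted p = 0.539). The median was 0.32 in CCl4+PZH against CCl4 (3 positive) and −0.09 against control (3 positive). Over all circles the medians were −0.28, 0.23 and 0.02. In these 2 lists limma, edgeR and DESeq2 called 0 circles in each of the 3 comparisons, where limma called at most 0.691% of all. The longer Rmdn2 circle, in CCl4 against control, was the only one at an unadjusted limma p under 0.05 (8.29% of all circles there).

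No circle of a cell type marker gene was called by limma, edgeR or DESeq2 in any of the 3 comparisons. limma called 0.691%, 0% and 0.23% of all circles, shares at which so few circles would mostly hold none. In CCl4 against control 4 of 8 hepatocyte and 1 of 4 macrophage circles had an unadjusted limma p under 0.05 (8.29% of all circles). In CCl4+PZH against CCl4 1 hepatocyte circle did (5.53% of all), and against control 2 hepatocyte circles and that of Ikzf1 did (5.07%). The 8 circles of hepatocyte genes (6 hosts of 14 genes: Abcc2, Cyp1a2, Kng2, Mug1, Pon1 and Slco1b2) together held 1.09% to 2.34% of table reads among controls, 0.448% to 1.72% among CCl4 and 1.17% to 1.64% among CCl4+PZH livers. The 4 circles of macrophage genes (2 hosts of 7, Adgre1 and Mertk) held 0 to 0.53%, 0.43% to 3.05% and 0.55% to 1.28%. In CCl4 against control 6 of the 8 hepatocyte values were negative (median −0.73), where the median of all circles was −0.28. Those of smallest p were Pon1 at −2.04 and a Slco1b2 circle at −1.88 (limma adjusted p = 0.199 and 0.201). The 2 positive were an Abcc2 circle at 1.23 (limma adjusted p = 0.605) and that of Mug1 at 0.07. All 4 macrophage values were positive (median 0.83; Adgre1 circles at 1.61 and 1.20, limma adjusted p = 0.259 and 0.663). In CCl4+PZH against CCl4 7 of the 8 hepatocyte and 2 of the 4 macrophage values were positive (medians 0.48 and −0.22, all circles 0.23). Against control 4 of 8 and 3 of 4 were positive (medians −0.05 and 0.53, all circles 0.02). Single circles of the lymphocyte gene Ikzf1, the matrix gene Mmp15 and the proliferation list's Brca2 had 1.02, 0.48 and 0.07 in CCl4 against control, 0.57, 0.86 and 0.63 in CCl4+PZH against CCl4, and 1.59, 1.34 and 0.71 in CCl4+PZH against control. Endothelial and cholangiocyte genes hosted 0. Albumin, whose gene defines hepatocytes, hosted no listed circle. The part of cell makeup in the Rmdn2 values was not tested, and in whole liver fewer cells of a type and less RNA per cell cannot be told apart.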

How the data were processed

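RNA depleted of ribosomal RNA from 18 livers was sequenced from both ends at 150 bp, per the labels' protocols. The authors deposited 1 table of CPM for 434 circular RNAs; FastQC 0.11.9, cutadapt 4.2, HISAT2 2.2.1, StringTie 2.1.5, Bowtie2 2.5.1 and GRCm38 are named in the submitters' processing notes. Which program called the circles, what total the CPM rest on and how the table was filtered is not given in the sources used here. Within a library every value was a whole multiple of the smallest non-zero value (100% within 0.1 of a whole number), which gave whole reads. All 45 pairs of libraries of 1 group differed beyond sampling noise (lowest chi-square per degree of freedom 2.11). Each library is 1 mouse, per the labels' protocols, and a replicate number names a mouse.

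Hosts and coordinates come from RefSeq GRCm38.p6: the gene holding both ends, and the shortest protein-coding one of several. limma 3.58.1 (R 4.3.3) fitted 3 group means over 18 libraries on log2(CPM + 0.13655), whose pseudocount is the median of the libraries' smallest values above 0, with an intensity trend, Benjamini-Hochberg adjustment over 434 circles, two-sided tests and a filter (above 0 in 6 or more libraries) that removed 0. A difference on this scale understates changes of low values. Shares of table reads were compared by exact permutation. Alternatives included count models on the recovered reads with DESeq2 1.42.0 and edgeR 4.0.16. The limma step was also run on simulated reads. These lacked the full spread between libraries in the CPM worth of a read, and no result here rests on them. Python 3.11.15, scipy 1.17.1, pandas 2.3.3, numpy 2.4.6 and matplotlib 3.10.9 were used. Named circles are the 3 members, the 5 other circles of highest mean CPM and the 3 most like each member. Also named are the 2 of smallest p in each list in CCl4 against control. Likeness to the longer Rmdn2 circle, the remaining list members, given by reads, and the 2 positive hepatocyte circles in that comparison were added. Members and lists were chosen with earlier results of these data known. The share tests of the longer Rmdn2 circle and its part of Rmdn2 reads were chosen after seeing the data. So were the fits and correlations without control 2 and CCl4 8 together and the fits at equal table totals without control 2.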

Additional observations from a re-analysis of the deposited data

Results flagged for a closer look

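Of 9 groups of 6 values (3 circles in 3 groups), 1 held a mouse far from the rest by Dixon's criterion at 95%. Chance meets it in about 1 in 20 groups of normally distributed values. For the longer Rmdn2 circle, CCl4 mouse 5 stood at 0.245 CPM, 2 reads, against 0.0874 CPM in mouse 7 and 0 in the other CCl4 livers. The value in mouse 7 is 1 read, so the rate of 1 in 20 need not hold for this group of zeros and single reads.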

How the results depend on the processing

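The 3 circles were refitted under 36 settings, 321 fits in all, and 0 passed an adjusted p of 0.05 (lowest 0.138, for the longer Rmdn2 circle in CCl4 against control without control 3). In 17 fits the sign turned, and the cause was not tested. For the shorter Rmdn2 circle in CCl4+PZH against control these were DESeq2 (−0.053), edgeR with TMM (−0.13) or implied totals (−0.16), controls 1, 5 and 8 only (−0.33), zeros left out (−0.063), control 2 and CCl4 8 left out together (−0.063) and equal table totals without control 2 (−0.43). For Alg12 in the same comparison they were equal table totals (−0.035), the same without control 2 (−0.11), median of ratios (−0.028), quantile normalization (−0.11) and edgeR with implied totals (−0.092). Its share difference was −0.211 when taken in CPM.

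Leaving out 1 library at a time, the shorter Rmdn2 circle ran from −1.26 to 0.10 in CCl4 against control, 1.03 to 1.39 in CCl4+PZH against CCl4 and −0.063 to 1.30 in CCl4+PZH against control. Alg12 ran from −1.21 to −0.15, 0.24 to 1.15 and −0.32 to 0.39, turning sign in the last without control 3 or CCl4+PZH 1 or 2 (−0.32, −0.050 and −0.11). The longer Rmdn2 circle ran from −2.0 to −1.19, 0.75 to 1.17 and −1.09 to −0.27, and over the other settings from −3.30 to −0.58, 0.24 to 1.99 and −1.43 to −0.28. In percentage points of table reads, Rmdn2 ran from −1.93 to −0.876, 0.849 to 1.29 and −0.889 to 0.168, and Alg12 from −0.258 to 0.0851, −0.0306 to 0.512 and −0.155 to 0.388. The Rmdn2 share passed without control 2 in CCl4 against control and without CCl4+PZH 6 in CCl4+PZH against CCl4, and in no other such fit. In each case the 1 library that kept the groups from separating was left out, so separation was fixed in advance. With all libraries neither passed (exact permutation test, adjusted p = 0.292 and 0.13).

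The number of circles called in CCl4 against control was 3. It was 1 with a pseudocount of 1 or 4 times larger, with circles above 0 in 12 or more libraries, with edgeR on implied totals and with the replicate block. It was 5 with equal table totals or edgeR with TMM, 0 with zeros left out, and 1 to 6 without 1 library. In CCl4+PZH against control it was 1. It was 0 with the filter of 12 or with zeros left out, 2 with either edgeR fit, 3 with array weights or without control 2 and CCl4 8, 4 with equal table totals without control 2, and 1 to 3 without 1 library. The correlation of both circles was −0.487 in CCl4+PZH livers, and −0.115 in CCl4 and −0.305 in CCl4+PZH livers at equal totals. Without control 2 and CCl4 8, a choice made after seeing the data, r was 0.53 on the CPM scale (permutation p = 0.034, not adjusted). For these livers rho was 0.388 (permutation p = 0.139), and at equal totals r was 0.044 (permutation p = 0.872).

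Replicate numbers were not taken to pair the mice. Same-numbered libraries had a mean correlation of deviations of 0.02 over 5 pairs in CCl4 against control, against −0.0032 over 31 other pairs. In CCl4+PZH against CCl4 it was −0.076 over 4 pairs, against 0.0096 over 32 others. In CCl4+PZH against control it was 0.019 over 4 pairs, against −0.0024 over 32 others. So few pairs cannot exclude a weak pairing. With the replicate block the shorter Rmdn2 circle stood at −0.48, 1.80 and 1.32, the longer at −1.74, 0.90 and −0.84 and Alg12 at −1.15, 1.39 and 0.24 in the 3 comparisons, with 0 called. Depth limits the longer Rmdn2 circle most, with 41 reads in 18 libraries.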
